A study of Sus scrofa with 8 samples.

Results

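Respiratory complexes II to V of the mitochondrial inner membrane were followed through 37 genes of the 25285 in the deposited table. They were the genes whose symbol in that table begins with SDHA, SDHB, SDHC or SDHD, with UQCR, with COX and a digit, or with ATP5. The symbols filled 38 rows, because ATP5J stood in 2 of them, and the row with the higher mean was used. Transcript levels had been measured by RNA sequencing in primary cells from the skeletal muscle of LYD pigs, grown in culture and called MuSCs in the protocol. The 4 groups were differentiated female, differentiated male, undifferentiated female and undifferentiated male cells, with 2 libraries each. The age of the animals, the days in differentiation medium and whether replicates came from different animals are not given in the sources used here. Each p-value below sets a change against the scatter of libraries within groups, estimated partly from all genes tested. That scatter may be technical.

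Complex II, succinate dehydrogenase, passes electrons from the citric acid cycle to ubiquinone. Complex III passes them on to cytochrome c, and complex IV, cytochrome c oxidase, from there to oxygen. Complexes III and IV pump protons as they do so, and complex V, the ATP synthase, uses the proton gradient to make ATP. Several small subunits of complex IV exist in a form made in most tissues and a form typical of heart and skeletal muscle. That pair of forms is the best known way in which the respiratory chain of muscle differs from that of other tissues. The core subunits of complex IV that mitochondrial DNA encodes were not analysed here.

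Expression is given as FPKM, fragments scaled to transcript length and to the mapped fragments of the library. Where 4 values of 1 state follow each other, they are those of female replicate 1, female replicate 2, male replicate 1 and male replicate 2. Fold changes are differentiated over undifferentiated on the log2(FPKM + 1) scale, which understates the change of genes with low values. "Rose" and "fell" are kept for genes with a limma adjusted p under 0.05 (Benjamini-Hochberg over 12963 genes), averaged over the sexes. Positions are on Sscrofa10.2.

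The cultures carried the marks of their labelled states. Summed over the 6 myotube markers found in the table, the level was 11850 to 17620 FPKM in differentiated libraries and 49.7 to 146 FPKM in undifferentiated ones, and all 6 rose. All 4 markers of dividing cells fell, with sums of 14.2, 16.8, 59.2 and 21.1 FPKM in differentiated libraries and 163 to 238 FPKM in undifferentiated ones. Differentiated male replicate 1 had the highest of the 4 sums in its state. Fibroblast markers (6 genes, of which 3 rose) summed to 465, 431, 1130 and 817 FPKM in differentiated libraries and to 106, 114, 321 and 173 FPKM in undifferentiated ones. COL1A1, in a row that spans 526 bp, gave 165, 178, 783 and 499.5 FPKM of the differentiated sums. Sums of endothelial markers did not exceed 7.40 FPKM in any library, those of Schwann cells 1.69 FPKM and those of adipocytes, of which 1 of 3 was found, 0.193 FPKM. Immune markers summed to 2.82 to 4.30 FPKM in differentiated and 12.1 to 17.0 FPKM in undifferentiated libraries. Pericyte and smooth muscle markers (4 genes) summed to 11.5, 14.4, 57.1 and 22.3 FPKM in differentiated libraries and to at most 13.5 FPKM in undifferentiated ones. Of the 2 myoblast markers found, DES, an intermediate filament protein also abundant in myotubes, rose to 1173 ± 211 FPKM, against 263 ± 79.9 FPKM (SD, n = 4, limma adjusted p = 0.000677). MYOD1, a transcription factor of the muscle lineage, fell to 94.8 ± 10.4 FPKM, against 184 ± 28.02 FPKM (SD, n = 4, limma adjusted p = 0.00239). The part of such cells in the results below was not tested. In bulk RNA, fewer cells of a type and less RNA per cell cannot be told apart. The number of reads is unknown, and relative depth, with differentiated female replicate 1 set to 1, lay between 1.27 and 1.64 in the other differentiated libraries and between 1.66 and 2.27 in undifferentiated ones.

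Genes of these complexes rose more often than they fell. Of the 35 members with a mean of at least 1 FPKM, 14 rose, 4 fell and 17 did not pass the test. That makes 40.0% that rose and 11.4% that fell, while among all genes tested 18.0% rose and 31.9% fell. The median log2 fold change was 0.26 over the tested members and -0.18 over all genes. With the libraries scaled by median ratios, which brought the median of all genes to 0.0049, 24 members rose and 2 fell, beside 24.1% and 23.2% of all genes. Without any overlap, 15 tested members were higher in the 4 differentiated libraries (17.1% of all genes) and 4 were lower there (30.2% of all genes). The remaining 2 members of the 37 were not tested. COX8C, a testis form of subunit VIII in other mammals, was listed at 0 in every library. ATP5H, a subunit of the stalk of complex V, was at 1.03 FPKM in undifferentiated male replicate 2 and listed at 0 in the other libraries. Its row spans only 483 bp on chromosome 16, so these values do not settle whether ATP5H was silent in the cells.

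**Figure D1:**
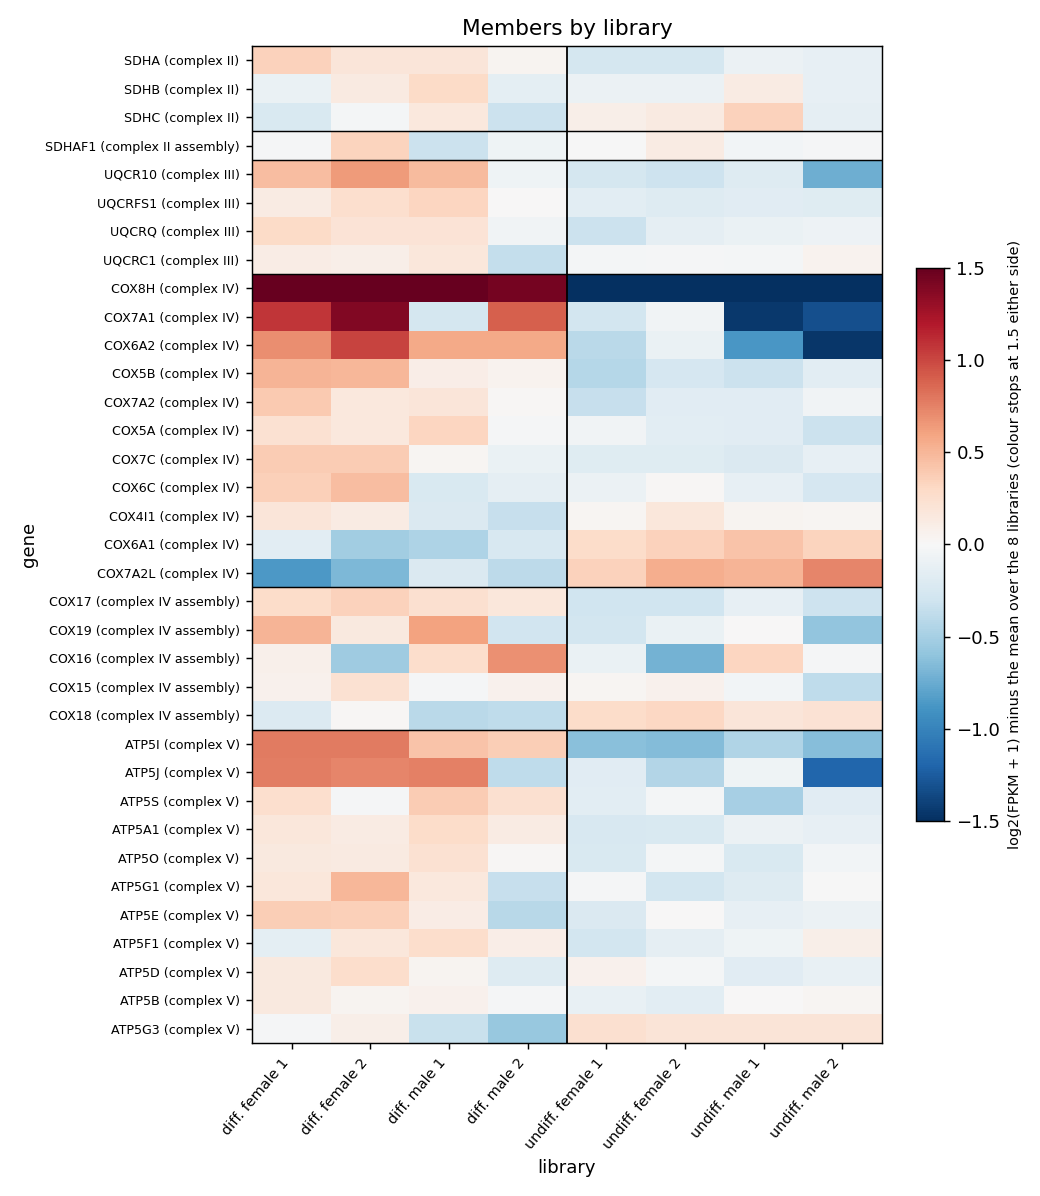
Each of the 35 tested members (rows, grouped by complex) in each of the 8 libraries (columns, differentiated left), coloured by log2(FPKM + 1) minus its mean over the 8 libraries, with the colour stopping at 1.5. COX8H, COX6A2 and ATP5I are redder in all 4 differentiated libraries than in any undifferentiated one, COX7A1 in all but differentiated male replicate 1, and COX6A1, COX7A2L and ATP5G3 are bluer. Differentiated male replicate 2 is the lowest of the differentiated libraries for 24 of the 35 members.

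Most changes were small. Only 5 called members changed by at least 1 on the log2 scale, namely COX8H, COX7A1, COX6A2, ATP5I and COX7A2L. A rise of at least that size was found for 4 members (9.99% of all genes) and a fall of that size for 1 (13.1% of all genes). The other 10 members that rose did so by log2 fold changes of 0.31 to 0.75. The order of levels kept its top: COX6C, COX7C, ATP5A1, COX17, ATP5O and ATP5B were, in that order, the 6 members with the highest mean FPKM in differentiated and in undifferentiated cells alike. They spanned 1514 ± 356 FPKM (COX6C) to 387 ± 17.7 FPKM (ATP5B) in differentiated libraries, and 1271 ± 97.8 to 357 ± 22.4 FPKM in undifferentiated ones (SD, n = 4 libraries per state). In differentiated cells the means of ATP5A1, COX17 and ATP5O lay further apart than their SDs, while in undifferentiated cells those of COX17 and ATP5O (417 ± 27.9 and 386 ± 29.7 FPKM) were within about 1 SD of each other. By contrast, ATP5G3, ATP5E and COX4I1, next to each other in differentiated cells at 216 ± 43.4, 208 ± 48.0 and 202 ± 35.9 FPKM, did not differ beyond theirs.

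**Figure D2:**
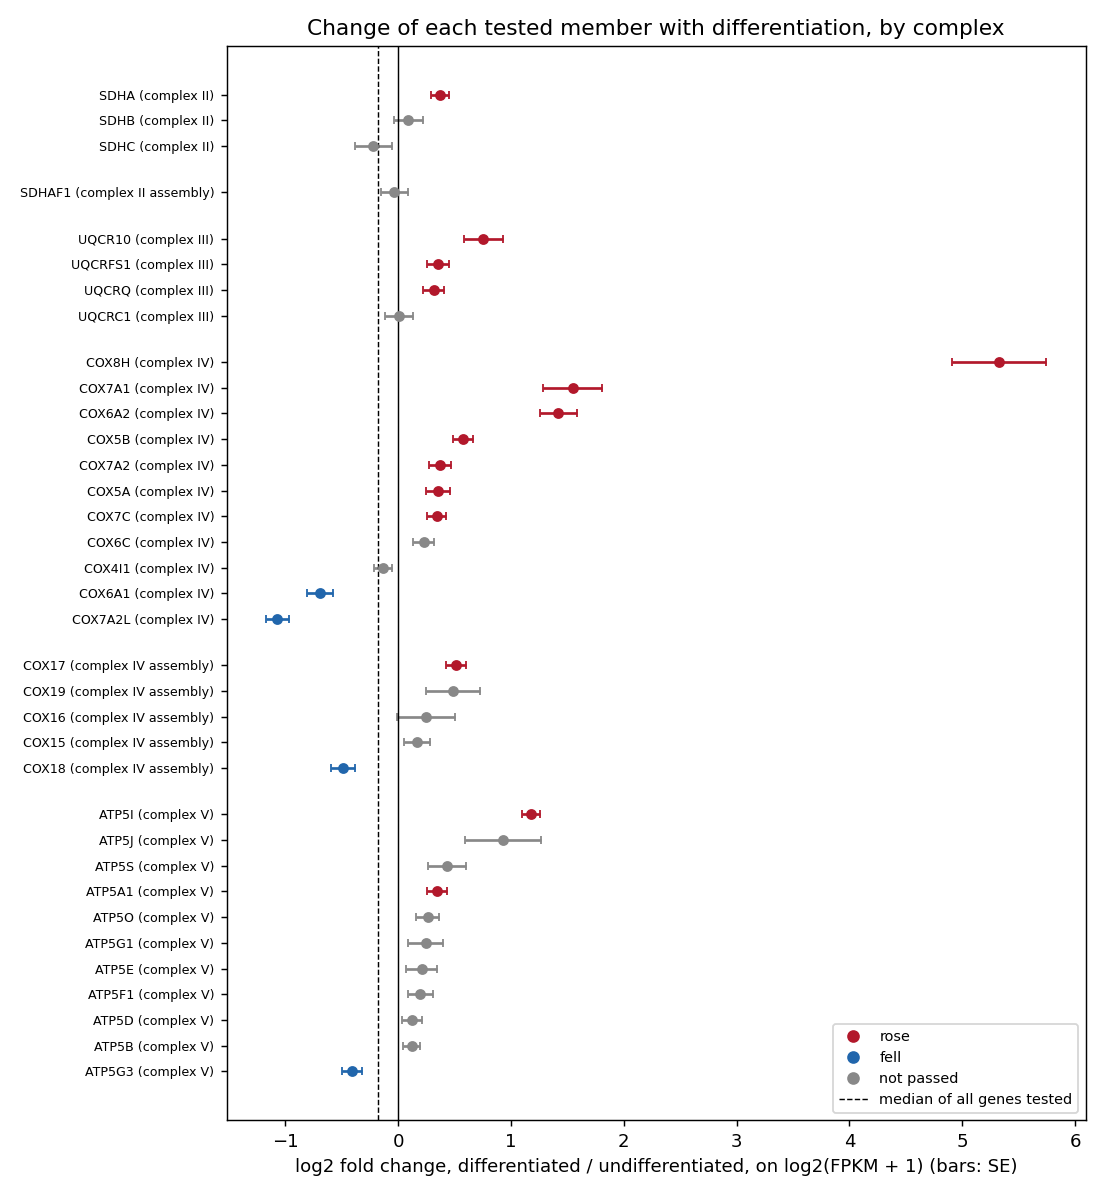
Log2 fold change of each tested member, differentiated over undifferentiated, on log2(FPKM + 1), with its SE, grouped by complex. Red points rose, blue points fell and grey points did not pass (limma adjusted p of 0.05 or more). The dashed line is the median of all genes tested, -0.18, and 30 of the 35 members lie to its right.

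Complex II changed in 1 of its 3 named subunits, where 18.0% of all genes rose and 31.9% fell. SDHA, the flavoprotein that oxidises succinate (ENSSSCG00000020686, scaffold GL896405.1, 25993 to 42468), was at 84.9, 75.7, 75.7 and 68.8 FPKM in differentiated libraries, against 55.5, 55.7, 62.9 and 61.2 FPKM in undifferentiated ones. The states did not overlap, and SDHA rose (log2 0.37 ± 0.080 SE, n = 4, limma adjusted p = 0.0107). Its iron-sulphur partner SDHB was at 45.0, 53.4, 59.3 and 43.7 FPKM in differentiated libraries and at 45.3, 45.5, 52.6 and 44.4 FPKM in undifferentiated ones. SDHC, which anchors the enzyme in the membrane and binds ubiquinone, was at 21.7, 25.0, 28.7 and 20.2 FPKM in differentiated libraries and at 27.5, 28.3, 32.9 and 23.3 FPKM in undifferentiated ones. Neither passed the test (limma adjusted p = 0.595 for SDHB and 0.298 for SDHC), and in both genes the states overlapped. The second anchor SDHD, named by an identifier table and outside the 37, was at 113 ± 34.4 FPKM in differentiated and 107 ± 20.8 FPKM in undifferentiated cells (SD, n = 4, limma adjusted p = 0.927). The assembly factor SDHAF1, which helps to fit the iron-sulphur clusters of SDHB, averaged 11.1 ± 2.29 and 11.2 ± 0.664 FPKM in differentiated and undifferentiated cells (SD, n = 4, limma adjusted p = 0.843). SDHA thus stood alone among these 5 genes in passing the test.

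In complex III, 3 of the 4 members rose and none fell, beside 18.0% and 31.9% of all genes. UQCR10, a small subunit beside cytochrome c1 (ENSSSCG00000024550, chromosome 14, 49817570 to 49820402), was at 198, 224, 201 and 138 FPKM in differentiated libraries, against 120, 116, 126 and 86.5 FPKM in undifferentiated ones. The male replicate 2 library was the lowest of both states, and the states did not overlap (log2 0.75 ± 0.17 SE, n = 4, limma adjusted p = 0.0130). UQCRFS1, the Rieske iron-sulphur protein at the catalytic centre, was at 43.1, 47.2, 49.5 and 39.7 FPKM in differentiated libraries, against 35.1, 34.3, 34.9 and 34.7 FPKM in undifferentiated ones. It rose by a log2 of 0.35 ± 0.096 SE (n = 4, limma adjusted p = 0.0242). The small subunit UQCRQ rose to 119 ± 11.8 FPKM, against 95.1 ± 7.14 FPKM in undifferentiated cells (SD, n = 4, log2 0.31, limma adjusted p = 0.0342). The calls of UQCRFS1 and UQCRQ depended on single libraries. That of UQCRFS1 ended without differentiated female replicate 2 or without any 1 undifferentiated library (adjusted p = 0.0625 to 0.0697). That of UQCRQ ended without any 1 of 6 libraries, all but differentiated male replicate 2 and undifferentiated female replicate 2 (adjusted p = 0.0623 to 0.0998). The core protein UQCRC1, a structural part related to mitochondrial proteases, averaged 104 ± 16.1 FPKM in differentiated and 102 ± 2.68 FPKM in undifferentiated cells (SD, n = 4, limma adjusted p = 0.967). Outside the 37, the other core protein UQCRC2 did not pass either (limma adjusted p = 0.329), while the small subunit UQCR11 rose to 340 ± 74.6 FPKM, against 235 ± 19.4 FPKM (n = 4, log2 0.50, limma adjusted p = 0.0221). In all, 10 rows of these families carried no symbol, and 8 of them were above 0. Of those, UQCR11 and COX6B rose, COX8A fell, and SDHD, SDHAF2, UQCRC2, COX10 and ATP5L did not pass. The rest were described as ATP5J2 and listed at 0 in every library. The call of UQCR11 ended without either differentiated female library, undifferentiated female replicate 2 or undifferentiated male replicate 2 (adjusted p = 0.0512 to 0.0698).

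Complex IV held 9 of the 18 called members, as 7 of its 11 tested subunit genes rose and 2 fell. Of all genes tested, 18.0% rose and 31.9% fell. The 3 muscle forms were the 3 largest rises of all members. COX8H, the heart and muscle form of subunit VIII (ENSSSCG00000014560, chromosome 2, 162153945 to 162155478), was at 50.9, 77.3, 62.7 and 19.5 FPKM in differentiated libraries. In undifferentiated cells it was listed at 0 in 3 libraries and was at 1.05 FPKM in female replicate 2. It rose (limma adjusted p = 0.000272, n = 4), with a fitted log2 fold change of 5.33 that depends on the pseudocount and was 8.00 with a pseudocount of 0.1.

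COX6A2, the muscle form of subunit VIa (ENSSSCG00000025688, chromosome 3, 17385587 to 17389044), was at 21.2, 26.7, 19.4 and 19.3 FPKM in differentiated libraries, against 9.33, 11.8, 6.46 and 4.01 FPKM in undifferentiated ones. It was at 4.01 FPKM or more in every undifferentiated library and rose without overlap between the states (log2 1.42 ± 0.17 SE, n = 4, limma adjusted p = 0.00102). COX7A1, the muscle and heart form of subunit VIIa (ENSSSCG00000025533, chromosome 6, 40921405 to 40922901), was at 28.9, 36.4, 10.9 and 25.5 FPKM in differentiated libraries, against 10.8, 12.7, 4.24 and 4.71 FPKM in undifferentiated ones. It rose (log2 1.55 ± 0.26 SE, n = 4, limma adjusted p = 0.00403), although differentiated male replicate 1 lay below undifferentiated female replicate 2. Within each sex the states of COX7A1 did not overlap. Differentiated male replicate 1, the low library, also had the lowest sum of myotube markers of its state (11850 FPKM). Its sum of fibroblast markers was the highest (1130 FPKM, of which COL1A1 made 783 FPKM). COX8H (62.7 FPKM) and COX6A2 (19.4 FPKM) were not at their lowest there. Whether these sums bear on COX7A1 was not tested.

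The general forms did not all move the same way. COX6A1, the form of subunit VIa made in most tissues (ENSSSCG00000009909, chromosome 14, 42876217 to 42878864), fell to 129, 101, 104 and 122 FPKM in differentiated libraries, against 175, 184, 196 and 182 FPKM in undifferentiated ones (log2 -0.69 ± 0.11 SE, n = 4, limma adjusted p = 0.00349). COX8A, the general form of subunit VIII, which an identifier table names and which is outside the 37, fell to 106, 103, 71.6 and 64.0 FPKM, against 157, 177, 145 and 180 FPKM in undifferentiated libraries (log2 -0.95 ± 0.10 SE, n = 4, limma adjusted p = 0.000800). COX7A2, the general form of subunit VIIa, went the other way. It rose to 258, 219, 222 and 198 FPKM in differentiated libraries, against 154, 174, 175 and 189 FPKM in undifferentiated ones (log2 0.37 ± 0.099 SE, n = 4, limma adjusted p = 0.0224). The call of COX7A2 ended without differentiated female replicate 1, differentiated male replicate 1, undifferentiated female replicate 1 or undifferentiated male replicate 1 (adjusted p = 0.0554 to 0.0700).

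COX7A2L, a relative of subunit VIIa known in mice for joining complexes III and IV into supercomplexes (ENSSSCG00000008466, chromosome 3, 104115633 to 104118648), had the largest fall of all members. It was at 54.2, 61.7, 84.7 and 75.4 FPKM in differentiated libraries, against 126, 144, 142 and 165 FPKM in undifferentiated ones. The states were far apart in both sexes (log2 -1.07 ± 0.10 SE, n = 4, limma adjusted p = 0.000533).

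**Figure D3:**
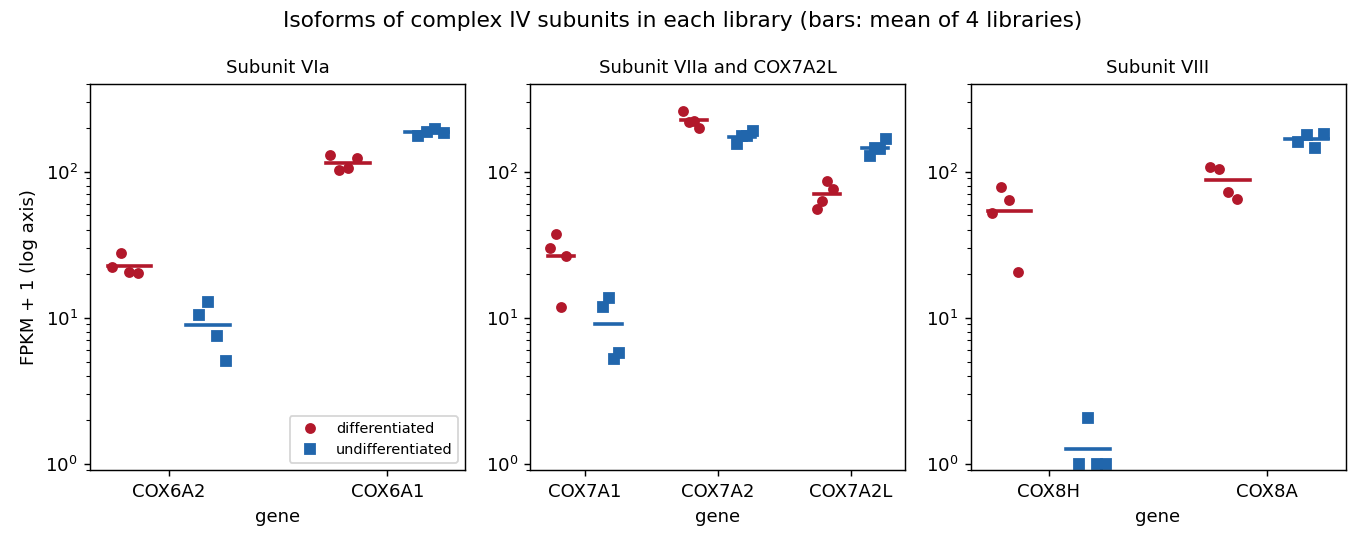
FPKM + 1 (log axis) of the muscle and general forms of 3 complex IV subunits and of COX7A2L in each library, differentiated (red circles) left of undifferentiated (blue squares), with bars for the mean of 4 libraries. COX6A1, COX7A2 and COX8A stay above COX6A2, COX7A1 and COX8H in every library, while the distance narrows most for subunit VIII.

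Set against each other within a library, the muscle forms stayed in the minority. COX8H made 32.4, 42.8, 46.7 and 23.4% of the summed FPKM of COX8A and COX8H in differentiated libraries, and at most 0.590% in undifferentiated ones. COX6A2 made 14.1, 20.9, 15.7 and 13.6% of its pair with COX6A1 in differentiated libraries, against 5.07, 6.02, 3.20 and 2.16% in undifferentiated ones. For both pairs the 4 differentiated libraries lay above the 4 undifferentiated ones. COX7A1 made 10.1, 14.3, 4.67 and 11.4% of its pair with COX7A2 in differentiated libraries, against 6.55, 6.80, 2.37 and 2.44% in undifferentiated ones, and here the states overlapped. These shares compare genes per length and are given as a description, with no test.

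The sum over each pair moved differently again. COX6A1 and COX6A2 together were at 136 ± 12.4 FPKM in differentiated and 192 ± 8.47 FPKM in undifferentiated libraries, with no overlap. COX7A1 and COX7A2 together were at 250 ± 28.1 FPKM in differentiated and 181 ± 12.4 FPKM in undifferentiated libraries, again with no overlap. With COX7A2L added, the sums were 319 ± 17.2 FPKM in differentiated and 325 ± 28.3 FPKM in undifferentiated libraries, and the states overlapped. COX8A and COX8H together were at 139 ± 41.5 and 165 ± 16.9 FPKM (SD, n = 4), where the states overlapped.

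**Figure D4:**
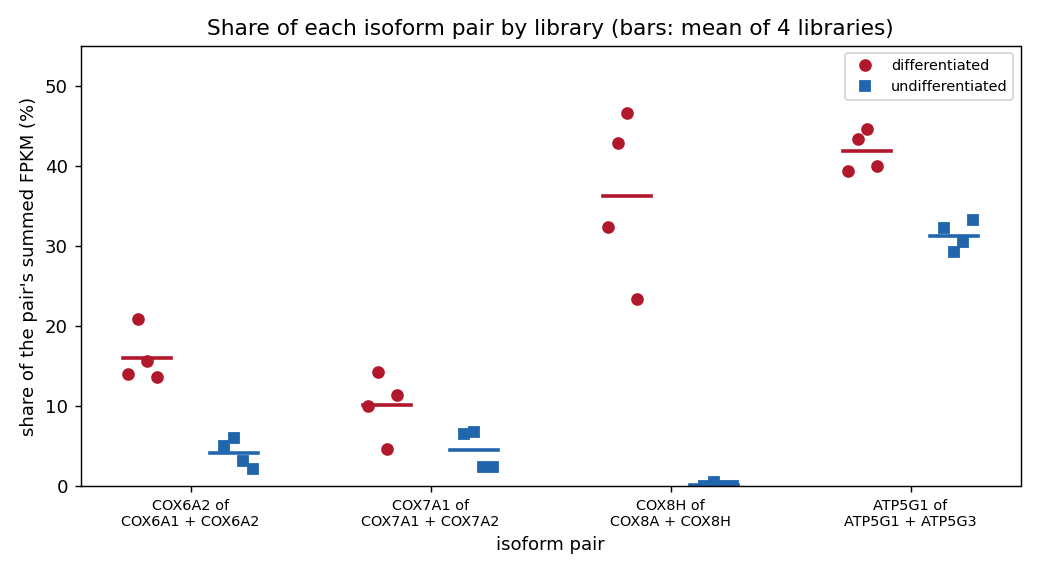
Share (%) of 1 isoform in the summed FPKM of its pair in each library, differentiated (red circles) left of undifferentiated (blue squares), with bars for the mean of 4 libraries. COX6A2, COX8H and ATP5G1 have higher shares in all 4 differentiated libraries than in any undifferentiated one, while COX7A1 overlaps.

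Some complex IV subunits were listed in a single form. COX5B, a zinc-binding subunit on the matrix side, rose to 320, 317, 241 and 234 FPKM in differentiated libraries, against 167, 189, 179 and 202 FPKM in undifferentiated ones (log2 0.58 ± 0.086 SE, n = 4, limma adjusted p = 0.00252). Its neighbour COX5A rose to 180.0 ± 18.0 FPKM, against 141 ± 10.9 FPKM (SD, n = 4, log2 0.35, limma adjusted p = 0.0338). The COX5A call was lost when any single library was left out, apart from differentiated male replicate 2 (adjusted p = 0.0548 to 0.0939). COX7C rose to 972, 977, 760 and 698 FPKM, against 660, 661, 644 and 688 FPKM in undifferentiated libraries (log2 0.34, n = 4, limma adjusted p = 0.0166). It did not pass with a block by sex and replicate number (limma adjusted p = 0.0896). COX6C, the most abundant member, was at 1753, 1883, 1170 and 1252 FPKM in differentiated libraries, against 1295, 1383, 1259 and 1147 FPKM in undifferentiated ones. Both female values stood above the male ones in differentiated cells, and COX6C did not pass (log2 0.23 ± 0.097 SE, n = 4, limma adjusted p = 0.0988). COX6C passed with median-ratio scaling (log2 0.44, adjusted p = 0.0129), with quantile normalization (log2 1.20, adjusted p = 0.0402), without genes under 300 bp (adjusted p = 0.0387) and without both differentiated male libraries (log2 0.52, adjusted p = 0.0171).

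COX4I1, the largest nuclear subunit and the site of regulation by ATP, was at 238, 227, 179 and 164 FPKM in differentiated libraries, against 213, 235, 215 and 213 FPKM in undifferentiated ones (limma adjusted p = 0.217, n = 4). The male differentiated values lay below all undifferentiated ones and the female ones did not. Outside the 37, a gene described in the table as COX6B rose to 242 ± 38.2 FPKM, against 160 ± 13.5 FPKM (SD, n = 4, log2 0.59, limma adjusted p = 0.00973). COX6B holds the monomers of the complex IV dimer together.

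Among 5 assembly factors of complex IV, 1 rose, 1 fell and 3 did not pass, where 18.0% of all genes rose and 31.9% fell. With median-ratio scaling 3 rose and none fell, beside 24.1% and 23.2% of all genes. COX17, the copper chaperone of the complex, rose to 602, 629, 589 and 559 FPKM in differentiated libraries, against 403, 403, 458 and 402 FPKM in undifferentiated ones (log2 0.51 ± 0.086 SE, n = 4, limma adjusted p = 0.00394). COX18, which helps to insert subunit II into the membrane, fell to 4.56, 5.51, 3.83 and 3.92 FPKM, against 6.77, 6.94, 6.28 and 6.45 FPKM (log2 -0.49 ± 0.10 SE, n = 4, limma adjusted p = 0.00981). COX18 no longer passed after scaling by median ratios (adjusted p = 0.0635) or without both differentiated male libraries (adjusted p = 0.0898). COX19, a further protein of copper handling, was at 111 ± 29.3 FPKM in differentiated and 77.8 ± 13.7 FPKM in undifferentiated cells (SD, n = 4, limma adjusted p = 0.143). It passed without differentiated male replicate 2 (adjusted p = 0.0410). COX15, an enzyme of heme A synthesis, and COX16 were low, at 9.07 ± 0.739 and 1.87 ± 0.955 FPKM in differentiated cells and at 8.02 ± 1.18 and 1.39 ± 0.666 FPKM in undifferentiated ones (SD, n = 4). Neither passed (limma adjusted p = 0.262 for COX15 and 0.464 for COX16).

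In complex V, 2 of 11 tested members rose, 1 fell and 8 did not pass. The share that rose, 18.2%, was close to the 18.0% of all genes. With median-ratio scaling 9 of the 11 rose, where 24.1% of all genes did, and none fell, where 23.2% did. The 7 rises added by that scaling were ATP5B, ATP5D, ATP5E, ATP5F1, ATP5J, ATP5O and ATP5S. Of these, ATP5E, ATP5J and ATP5O also passed in some other alternatives. ATP5I, subunit e of the membrane part, which takes part in joining ATP synthases into dimers (ENSSSCG00000023903, chromosome 8, 149901 to 151754), was at 141, 142, 110 and 106 FPKM in differentiated libraries. In undifferentiated libraries it was at 52.8, 51.9, 59.7 and 52.2 FPKM. It had the smallest adjusted p of all members (log2 1.18 ± 0.078 SE, n = 4, limma adjusted p = 0.000149). ATP5A1, the alpha subunit of the catalytic head, rose to 806, 779, 869 and 780 FPKM, against 607, 609, 672 and 657 FPKM in undifferentiated libraries (log2 0.34 ± 0.085 SE, n = 4, limma adjusted p = 0.0170). The beta subunit ATP5B, which carries the catalytic sites, was at 387 ± 17.7 FPKM in differentiated and 357 ± 22.4 FPKM in undifferentiated cells and did not pass (SD, n = 4, limma adjusted p = 0.243). ATP5D and ATP5E, parts of the central stalk that turns inside the head, did not pass either (limma adjusted p = 0.279 and 0.243), ATP5E passing without differentiated male replicate 2 (adjusted p = 0.0338).

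The c ring, which turns as protons pass, is encoded by several genes whose mature proteins are the same. ATP5G3 fell to 243, 260, 195 and 166 FPKM in differentiated libraries, against 290, 281, 280 and 281 FPKM in undifferentiated ones (log2 -0.41 ± 0.087 SE, n = 4, limma adjusted p = 0.00977). ATP5G1 was at 158, 199, 157 and 111 FPKM in differentiated libraries, against 138, 116, 123 and 140 FPKM in undifferentiated ones, with overlap (limma adjusted p = 0.229). Within each library ATP5G1 made 39.3, 43.4, 44.6 and 40.0% of the sum of both genes in differentiated cells, and 32.2, 29.3, 30.5 and 33.3% in undifferentiated cells, so the share did not overlap between states. ATP5G3 no longer passed after scaling by median ratios (adjusted p = 0.127) or without both differentiated male libraries (adjusted p = 0.153). Nor did it pass with a block by sex and replicate number (limma adjusted p = 0.0564).

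Of the stalk that holds the head still, ATP5O averaged 462 ± 27.2 FPKM in differentiated and 386 ± 29.7 FPKM in undifferentiated cells, and ATP5F1 144 ± 17.2 and 126 ± 13.4 FPKM (SD, n = 4). Neither passed (limma adjusted p = 0.0741 and 0.178), although ATP5O did not overlap between the states. ATP5J, the coupling factor of the stalk, was at 26.9, 26.2, 26.6 and 11.6 FPKM in differentiated libraries, against 13.6, 11.1, 14.6 and 6.21 FPKM in undifferentiated ones (log2 0.93 ± 0.34 SE, n = 4, limma adjusted p = 0.0604). It passed without differentiated male replicate 2 or undifferentiated male replicate 1 (adjusted p = 0.0304 and 0.0327). The second row of that symbol, on scaffold JH118804.1, was at 28.1, 19.8, 20.1 and 6.20 FPKM in differentiated libraries and 19.9, 21.8, 13.8 and 3.80 FPKM in undifferentiated ones (limma adjusted p = 0.555). How fragments were shared between the 2 rows is not given in the sources used here, so ATP5J is uncertain, and the same holds for any member with a processed copy elsewhere in the genome. ATP5S, the coupling factor B, was low at 2.57 ± 0.402 FPKM in differentiated and 1.65 ± 0.343 FPKM in undifferentiated cells (SD, n = 4, limma adjusted p = 0.0757).

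Genes of the same pathway outside the 37 were counted by list, beside the 18.0% of all genes that rose and the 31.9% that fell. Of 40 tested complex I genes, assembly factors included, 20 rose and 1 fell. With median-ratio scaling the counts were 26 and 0, where 24.1% of all genes rose and 23.2% fell. Among 15 other genes of complex IV, 2 rose and 2 fell, and with median-ratio scaling 4 rose and 2 fell. The rise of TACO1 (log2 0.40, n = 4, limma adjusted p = 0.0297), a translational activator of subunit I, was lost without any 1 of 7 libraries, all but differentiated male replicate 1 (adjusted p = 0.0513 to 0.0887), with no filter and without both differentiated male libraries. The fall of the assembly factor COA4 (log2 -0.84, n = 4, limma adjusted p = 0.0198) was lost without differentiated female replicate 2, differentiated male replicate 2 or undifferentiated male replicate 1 (adjusted p = 0.0651 to 0.0691), and without both differentiated male libraries (adjusted p = 0.172). COA4 also did not pass with a block by sex and replicate number (limma adjusted p = 0.106). Its row spans 255 bp, and the states overlapped. The log2 fold change of COA4 was -0.064 in females and -1.61 in males, a difference that did not pass (limma adjusted p = 0.804). NDUFA4, once assigned to complex I and now counted as a subunit of complex IV, rose to 473 ± 60.8 FPKM, against 251 ± 25.5 FPKM (SD, n = 4, log2 0.91, limma adjusted p = 0.000843). LRPPRC, which stabilises mitochondrial messenger RNAs, fell to 45.4 ± 1.42 FPKM, against 71.6 ± 6.01 FPKM (n = 4, log2 -0.64, limma adjusted p = 0.00119).

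Of 4 other genes of complex V, 1 rose and 1 fell, where 18.0% of all genes rose and 31.9% fell. The fall was that of ATPAF2, an assembly factor of the catalytic head (log2 -0.79, n = 4, limma adjusted p = 0.0261). It was lost with median-ratio scaling, which left no fall, with quantile normalization, and without any 1 of 6 libraries, all but the differentiated male ones (adjusted p = 0.0667 to 0.0802). The one that rose was ATPIF1, the inhibitor that stops the synthase from running backwards, at 215 ± 35.0 FPKM in differentiated and 149 ± 12.6 FPKM in undifferentiated cells (SD, n = 4, log2 0.51, limma adjusted p = 0.00539). Among 7 genes of cytochrome c and the assembly of complex III, none rose and 3 fell, beside the same shares of all genes. With median-ratio scaling 1 rose and 2 fell, beside 24.1% and 23.2% of all genes. LYRM7, which handles the Rieske protein before its insertion, fell to 2.46 ± 0.697 FPKM, against 6.69 ± 2.89 FPKM (n = 4, log2 -1.11, limma adjusted p = 0.00841).

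Among 10 general mitochondrial genes, such as citrate synthase, outer membrane channels and protein import pores, none rose and 4 fell. With median-ratio scaling 1 of them rose and 3 fell, where 24.1% of all genes rose and 23.2% fell. Among 11 regulators of mitochondrial genes 2 rose and 2 fell without that scaling. For both lists the shares of all genes without it were 18.0% that rose and 31.9% that fell. One rise, that of the nuclear receptor ESRRA (log2 0.33, n = 4, limma adjusted p = 0.0471), was lost without any 1 of 7 libraries, all but undifferentiated male replicate 2 (adjusted p = 0.0700 to 0.132). It was also lost with a pseudocount of 0.1, with no filter, without genes under 300 bp and without both differentiated male libraries. The same held with a block by sex and replicate number. The coactivator PPARGC1B rose to 9.02 ± 1.08 FPKM, against 4.29 ± 0.576 FPKM (n = 4, log2 0.92, limma adjusted p = 0.00276). PPRC1, a member of the same family, fell to 15.8 ± 1.76 FPKM, against 28.1 ± 1.26 FPKM (n = 4, log2 -0.80, limma adjusted p = 0.000479).

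The effect of differentiation was also read within each sex, with 2 libraries against 2. In females 12 members rose and 2 fell, where 12.5% and 23.3% of all genes did. In males 5 rose and 4 fell, where 12.9% and 20.1% of all genes did. Leaving out a library of the sex in question leaves 1 group with a single library, which the fit assumes to vary like the other groups. Under that assumption, in females 3 rises were left without undifferentiated replicate 1, 6 without undifferentiated replicate 2 or differentiated replicate 1, and 7 without differentiated replicate 2, and 1 fall was left without differentiated replicate 2 or either undifferentiated one. In males 3 rises and 1 fall were left without either undifferentiated replicate, and 2 falls without differentiated replicate 1. COX8H, COX7A1, COX6A2, ATP5I and COX17 passed as rises, and COX6A1 and COX7A2L as falls, in each sex alone. No member passed the test of a difference in effect between the sexes (limma adjusted p of at least 0.804, where 0.0231% of all genes passed), with 4 of 35 members, and 6.03% of all genes, under an unadjusted p of 0.05. Nor did any member pass the test of females against males averaged over the states (limma adjusted p of at least 0.403, where 0.0849% of all genes passed), with 7 of 35 members, and 9.73% of all genes, under an unadjusted p of 0.05.

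In differentiated cells both female libraries nevertheless lay above both male ones for 16 of the 35 tested members (17.3% of all genes), and below them for 2 (25.4% of all genes). In undifferentiated cells the counts were 9 above (15.2% of all genes) and 7 below (15.9% of all genes). No member passed the test of females against males within the differentiated libraries (limma adjusted p of at least 0.300, where 0.0463% of all genes passed), a contrast chosen after these values were seen. Differentiated male replicate 2 was the lowest of its state for 24 of 35 members, while it was the lowest for 19.4% of all genes. Its members lay a median of 0.25 on the log2 scale below the mean of the other 3 differentiated libraries, while all genes lay a median of 0.040 above it. The sums of myotube markers (14040 FPKM) and fibroblast markers (817 FPKM) in that library lay within the range of its state. The fibroblast sums were 465 and 431 FPKM in differentiated female libraries and 1130 and 817 FPKM in differentiated male ones. COL1A1 alone was at 165 and 178 FPKM in these female libraries and at 783 and 499.5 FPKM in the male ones. COL3A1 was at 296 and 247 FPKM in the female libraries and at 312 and 307 FPKM in the male ones. The part of these sums in the sex pattern was not tested. Without differentiated male replicate 2, 17 members rose and 4 fell.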

How the data were processed

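The authors deposited 1 table of FPKM per gene and library, per the file headers. Per the submitters' processing notes, cutadapt 1.6, TopHat2 2.0.12.1 and Cufflinks 2.2.1 were used on Sscrofa10.2. Their settings, including the treatment of fragments that match several places, are not given in the sources used here. Per the labels' protocols, a strand-keeping kit for small amounts of total RNA was used with paired reads of 100 bp, although another label names polyA RNA.

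The depth in reads is unknown. Relative depth was estimated from the commonest ratio between libraries in 5557 genes with low values (largest misfit over 28 pairs 0.0525 on the log2 scale). FPKM depends on the transcript length used for a gene, so levels of different genes are less exact than changes of 1 gene.

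Values were taken as log2(FPKM + 1), and the test covered the 12963 genes that averaged 1 FPKM or more across 8 libraries. The model was fitted in R 4.3.3 by limma 3.58.1 (eBayes with a trend), using a mean for each of the 4 groups without a block, which left 4 residual degrees of freedom. P-values are two-sided and adjusted by Benjamini and Hochberg over all genes tested. The fit was tested on simulated data.

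The members, role groups and lists were chosen with earlier results of these data known. Given with every library's value were called members with an absolute log2 fold change of at least 1, the 2 largest rises and falls of each role group, isoform pairs and complex II. Values of COX5B, COX7C, COX6C, ATP5J and COX8A by library were added after they were seen. A further 10 rows of the same families had no symbol in the table and were kept out of the counts. They were named by an identifier table (6 rows) or the table's description, and 8 of them were above 0. The protein and promoter sequences are not used here.

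Alternatives were a pseudocount of 0.1, no filter, median-ratio scaling, quantile normalization, no genes under 300 bp, a block by sex and replicate number, each library left out in turn and, added after the data were seen, both differentiated male libraries left out.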

Additional observations from a re-analysis of the deposited data

Results flagged for a closer look

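In 7 of the 70 sets of 4 libraries (35 tested members in 2 states) the highest or lowest library stood further from the rest than Dixon's 95% critical value for 4 samples allows, where chance flags about 1 in 20. SDHB was highest in undifferentiated male replicate 1, at 52.6 FPKM. COX17 and ATP5I were highest in that same library, at 458 and 59.7 FPKM. COX4I1 was highest in undifferentiated female replicate 2, at 235 FPKM, and COX8H was above 0 among undifferentiated libraries in that library alone, at 1.05 FPKM. With its other undifferentiated values listed at 0, COX8H would be flagged whatever the size of that value. ATP5G3 was highest in undifferentiated female replicate 1, at 290 FPKM. ATP5J was lowest among differentiated libraries in male replicate 2, at 11.6 FPKM.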

How the results depend on the processing

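Of the 18 called members, 11 kept their call and direction in all 15 alternatives, 9 of them rises and 2 of them falls (COX6A1 and COX7A2L). Median-ratio scaling gave 24 rises and 2 falls, and leaving out both differentiated male libraries 17 rises and 2 falls. With each library left out in turn the rises ranged from 10 to 17 and the falls stayed at 4. In females the rises ranged from 3 to 14 and the falls from 1 to 2, with 1 fall under median-ratio scaling and under quantile normalization. In males the rises ranged from 3 to 5 and the falls from 1 to 4, with 11 rises under each of those scalings. Median-ratio scaling gave 18 rises in females and quantile normalization 12. Over all genes tested, same-numbered libraries did not deviate together (r = 0.0684 in females and -0.0264 in males). That does not settle whether they share an animal or a culture, which is not given in the sources used here. With a replicate block 13 members rose and 3 fell, as ATP5G3, COX7A2, COX7C and UQCRQ did not pass and ATP5J and COX19 did.

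Among members that did not pass, SDHB, SDHAF1, UQCRC1, COX4I1 and COX16 changed sign in some alternative, in each case without passing. The other members that did not pass kept their sign. Some family rows that did not pass changed sign too, again without passing. Median-ratio scaling gave log2 fold changes of 0.077 for COX4I1, 0.16 for SDHAF1 and 0.16 for ATP5L, and quantile normalization 0.14 for SDHAF1 and 0.039 for ATP5L. Without both differentiated male libraries the values were 0.086 for COX4I1, 0.14 for SDHAF1, 0.066 for ATP5L, -0.10 for COX16 and -0.20 for COX10. With single libraries left out SDHAF1 ranged from -0.12 to 0.054, ATP5L from -0.11 to 0.019, COX10 from -0.32 to 0.83, SDHD from -0.24 to 0.31, UQCRC1 from -0.12 to 0.14 and SDHB from -0.018 to 0.20. The cause was not tested. With the depth in reads unknown, no counting error can be given for any member.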
